A study of Mus musculus with 8 samples.

Results

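Collagen crosslinking and folding enzymes were followed across the AV cushion and the ventricle of the E12.5 mouse heart. The set holds 10 genes, taken by symbol from the deposited count table: the lysyl oxidases Lox, Loxl1, Loxl2, Loxl3 and Loxl4, the lysyl hydroxylases Plod1, Plod2 and Plod3, the collagen chaperone gene Serpinh1 and the prolyl hydroxylase gene P4ha2. They are 10 of 22869 symbols in the table and 10 of the 14940 symbols with enough reads to be tested. Total RNA freed of ribosomal RNA was sequenced from 8 libraries in 4 groups of 2: cushion and ventricle, each from wild type and from mutant embryos of the C57BL/6 strain. The wild type is given as KLF2 fl/fl in the description of the series, and the mutant carries the label "NfatC1+/-; KLF2fl/fl", so both hold a floxed Klf2 gene. The labels do not say whether the NfatC1 allele is one that lost function or one that carries a recombinase. They also do not say whether paired libraries of 1 group stem from different embryos. The p-values therefore reflect the spread among these libraries, and that spread may be technical.

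A collagen chain is modified in the endoplasmic reticulum before it folds: prolyl hydroxylases stabilise the coming triple helix, and lysyl hydroxylases modify lysines that later carry sugars or crosslinks. The chaperone encoded by Serpinh1, known as HSP47, binds the folded helix on its way out. Outside the cell the copper enzymes of the lysyl oxidase family turn lysines of collagen and elastin into aldehydes, from which the crosslinks form that stiffen the matrix. The AV cushions, the swellings from which heart valves form, are rich in such matrix, while the ventricle at this age is mostly muscle.

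The libraries held 18955733 to 26579215 counts after 1 row was kept for each symbol, so that 1 CPM, a share of the library's counts after scaling, was at least 18.7 reads. Klf2 was at 17.3 and 12.9 CPM in wild type cushion and at 1.96 and 0.651 CPM in mutant cushion. It was at 11.7 and 9.19 CPM in wild type ventricle and at 0.735 and 0.625 CPM in mutant ventricle, so the labels and the targeted gene point the same way in all 8 libraries. The summed level of 9 cushion mesenchyme markers was 7346 to 15642 CPM in cushion and 1512 to 4394 CPM in ventricle, and none was at 0 in any library. The summed level of 10 cardiomyocyte markers was 25322 to 43972 CPM in cushion and 37048 to 97934 CPM in ventricle, so the cushion samples held muscle RNA too. On the first principal component mutant cushion replicate 2 lay at -22.8, while the 3 remaining cushion libraries lay at -54.9 to -46.3 and the ventricle libraries at 35.0 to 50.3. In such bulk samples, fewer cells of a type and less RNA per cell cannot be told apart. The part of these marker differences in the results below was not tested.

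The 10 genes covered a wide range of abundance. Levels of different genes were compared as CPM per kilobase of the longest annotated transcript. In wild type cushion, Serpinh1 came first with 324 CPM per kilobase (range 321 to 327), followed by Loxl2 with 120 (range 96.7 to 144) and Plod2 with 59.5 (range 48.4 to 70.7). Loxl2, which acts on collagen IV of basement membranes among other substrates, was thus the most abundant of the 5 lysyl oxidase genes. Plod3 followed with 25.7 CPM per kilobase (range 24.0 to 27.4), then P4ha2 with 19.5 (range 18.2 to 20.8), Plod1 with 18.8 (range 15.9 to 21.7), Lox with 12.9 (range 9.68 to 16.0) and Loxl1 with 9.17 (range 8.53 to 9.81). The ranges of P4ha2 and Plod1, of Plod1 and Lox, and of Lox and Loxl1 overlapped, so the order within those pairs is not beyond the spread of the libraries. Loxl3 followed with 7.65 CPM per kilobase (range 7.40 to 7.90), and Loxl4 was last with 0.571 (range 0.476 to 0.666). In wild type ventricle the first 6 places and the last were the same, but Lox lay at 4.68 CPM per kilobase (range 4.09 to 5.28), below Loxl3 at 7.25 (range 6.69 to 7.81) and Loxl1 at 6.36 (range 6.28 to 6.44).

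**Figure D1:**
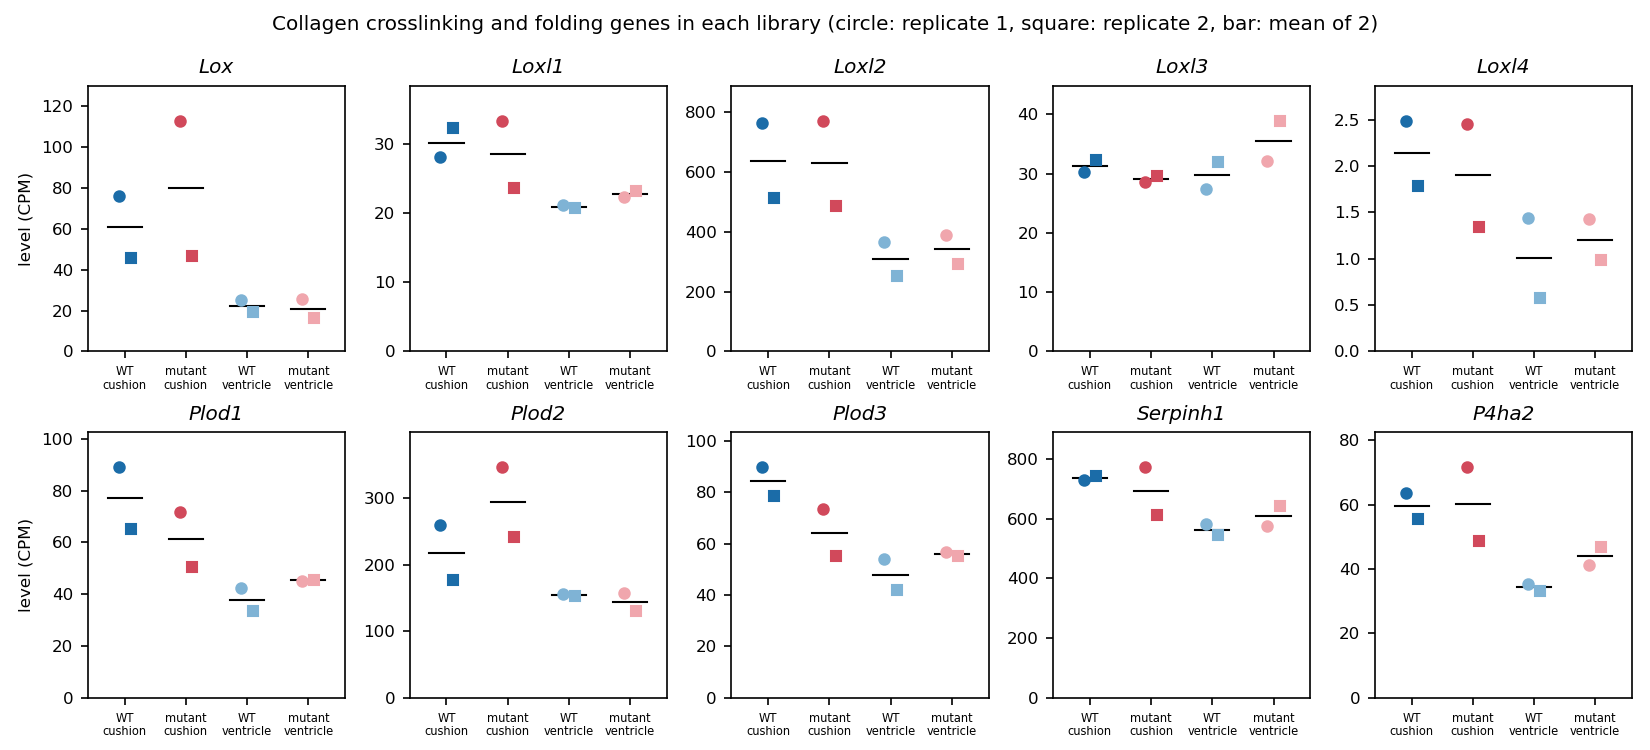
Each panel plots 1 gene in CPM on a linear axis from 0, with circles for replicate 1, squares for replicate 2 and a bar for the mean of the 2 libraries in each of the 4 groups. Lox in cushion lies between 45.9 and 113 CPM and in ventricle between 16.2 and 25.8 CPM, while Loxl3 lies between 27.4 and 38.9 CPM in all libraries.

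Several of these genes had the same replicate order in all 4 groups. How common that is among all tested symbols was not counted. Across genes, deviations of the replicates correlated in every pair of groups (Pearson r 0.341 to 0.522), so the pattern is not particular to these genes. Replicate 1 was higher than replicate 2 in all 4 groups for Lox, Loxl2, Loxl4, Plod2 and Plod3, by 0.37 to 1.27 on the log2 scale for Lox and by 0.40 to 0.66 for Loxl2. For Loxl3 replicate 1 was the lower one in all 4 groups. A fit with the replicate number as a block is therefore given beside the fit without it wherever a call changed. A gene is said to have passed, risen or fallen where its edgeR quasi-likelihood test had a Benjamini-Hochberg adjusted p below 0.05 over all tested symbols.

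Wild type cushion against wild type ventricle shows where the enzymes are expressed in the normal heart at this stage. All 10 genes had a higher estimate in cushion, with a median log2 fold change of 0.80 against 0.01 over all tested symbols. Of the 10 genes, 4 passed: Loxl2, Plod1, Plod3 and P4ha2, all of them higher in cushion, beside a background of 23.1% of all tested symbols that passed in either direction. With the replicate block 9 of the 10 passed, all except Loxl3, beside a background of 41.4% in either direction and 21.2% higher in cushion. So lysyl oxidases, lysyl hydroxylases, the chaperone and the prolyl hydroxylase were all among the genes that rose in that fit.

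Among the lysyl oxidases, Lox, the founding member of the family, was at 76.0 and 45.9 CPM in wild type cushion and at 25.0 and 19.4 CPM in wild type ventricle. The libraries of the 2 tissues did not overlap, which was also the case for 33.5% of all tested symbols in the direction of cushion. The log2 fold change of Lox was 1.46 ± 0.49 (SE), with an adjusted p of 0.0810, and it was 1.42 ± 0.18 with an adjusted p of 7.99e-05 with the block. Loxl2 was at 764 and 514 CPM in wild type cushion and at 366 and 252 CPM in wild type ventricle. Every cushion library lay above both ventricle libraries, although replicate 2 of cushion was nearer to replicate 1 of ventricle than to its own partner. Loxl2 rose by 1.05 ± 0.31 on the log2 scale (adjusted p 0.0448), a call that was lost without the filter on low counts (adjusted p 0.0553).

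Loxl1, which is needed for elastic fibres, was at 28.1 and 32.3 CPM in wild type cushion and at 21.2 and 20.7 CPM in wild type ventricle, a log2 difference of 0.53 ± 0.18 (adjusted p 0.0653, and 0.0168 with the block). Loxl4, with the lowest level of the family, was at 2.49 and 1.78 CPM in cushion and at 1.44 and 0.581 CPM in ventricle, a log2 difference of 1.07 ± 0.49 (adjusted p 0.146, and 0.0192 with the block). Its ventricle values rest on 27 and 11 reads. Loxl3 was at 30.3 and 32.4 CPM in cushion and at 27.4 and 32.0 CPM in ventricle, and here the tissues overlapped, with a log2 difference of 0.08 ± 0.15 (adjusted p 0.738). Exons of Loxl3 share 535 bases, 11.6% of its exon bases, with Htra2 on the opposite strand, and since the strand setting of the counts is not given in the sources used here, reads of the 2 genes cannot be told apart there. Htra2 stood at 25.8 to 52.6 CPM over the 8 libraries.

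All 3 lysyl hydroxylases were higher in wild type cushion than in wild type ventricle. Plod1, which hydroxylates lysines of the triple helix, was at 89.1 and 65.1 CPM in cushion and at 42.2 and 33.6 CPM in ventricle. Plod3, which also adds sugars to hydroxylysine, was at 89.7 and 78.6 CPM in cushion and at 53.8 and 41.9 CPM in ventricle. Neither gene overlapped between the tissues, and Plod1 rose by 1.02 ± 0.21 (adjusted p 0.0129) and Plod3 by 0.81 ± 0.18 (adjusted p 0.0149) on the log2 scale. Plod2, which acts on the lysines of the chain ends, was at 259 and 177 CPM in cushion and at 156 and 153 CPM in ventricle. Its log2 difference was 0.49 ± 0.23 (adjusted p 0.145), and with the block it was 0.46 ± 0.13 (adjusted p 0.0125). Exons of Plod3 share 529 bases, 11.7% of its exon bases, with Znhit1 on the opposite strand, which stood at 9.09 to 14.6 CPM over the 8 libraries.

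P4ha2, a catalytic subunit of collagen prolyl hydroxylase, was at 63.6 and 55.6 CPM in wild type cushion and at 35.5 and 33.3 CPM in wild type ventricle. It rose by 0.79 ± 0.19 on the log2 scale (adjusted p 0.0202), with no overlap between the tissues. Serpinh1 was at 729 and 743 CPM in cushion and at 580 and 544 CPM in ventricle. Its tissues did not overlap either, but the difference was smaller, 0.39 ± 0.16 on the log2 scale (adjusted p 0.105, and 0.0328 with the block). The number of genes that passed without the block depended on single libraries: it was 0 without wild type cushion replicate 1 or wild type ventricle replicate 2, 2 without wild type ventricle replicate 1 (Plod1 and Plod3), and 3 (Plod1, Plod3 and P4ha2) without wild type cushion replicate 2 or without either mutant ventricle library. When transcript GC content and length were corrected for together with the block, 6 genes passed (Lox, Loxl2, Plod1, Plod2, Plod3 and P4ha2; background 16.3% higher), Loxl1 was at -0.04, Serpinh1 at 0.01 and Loxl3 at -0.22, and Plod3 was at 0.34. With that correction but no block Plod3 did not pass (adjusted p 0.179).

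**Figure D2:**
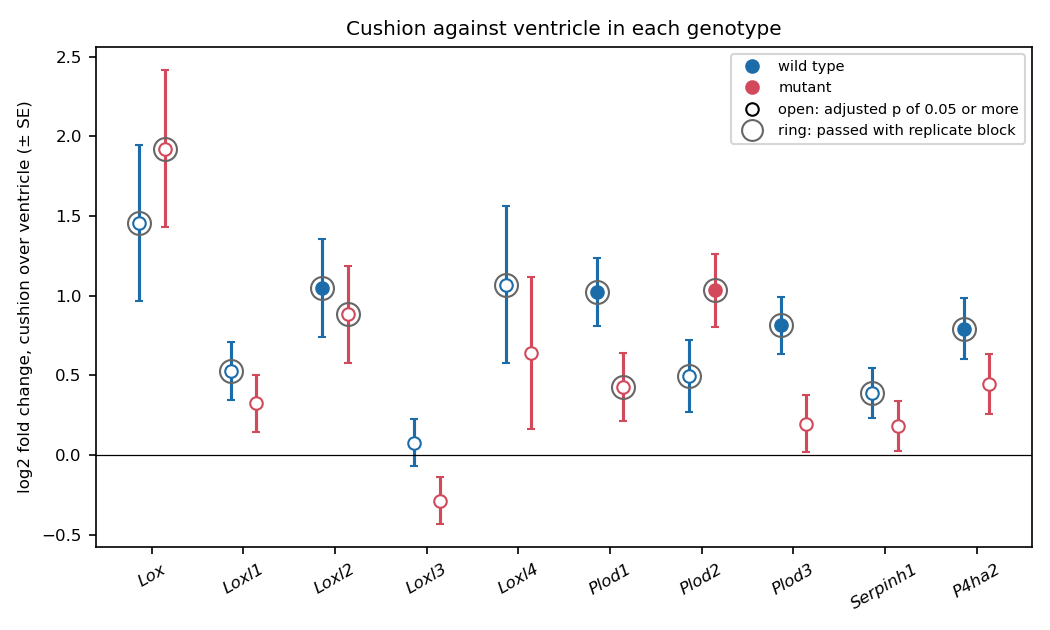
The log2 fold change of cushion over ventricle is plotted with its standard error for each of the 10 genes, in blue for wild type and in red for mutant; filled points passed without the block and ringed points passed with it. Filled points are Loxl2, Plod1, Plod3 and P4ha2 in wild type and Plod2 in mutant, and Lox has the highest estimate in both genotypes, 1.46 and 1.92.

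Promoters from the RefSeq table (build GRCm38.p6) were examined for 5 genes: Plod1, Plod3, P4ha2, Serpinh1 and Loxl4. For Loxl1, Loxl2, Loxl3 and Plod2 no promoter was found in that table under these symbols. Lox was left out of the search, which does not show that the table lacks its promoter. Among the 5 genes examined, Plod1, Plod3 and P4ha2 are those that rose in wild type cushion without the block. Serpinh1 (adjusted p 0.0328) and Loxl4 (adjusted p 0.0192) rose there with the block and not without it. For Plod1, Plod3 and P4ha2 the 250 bases before the annotated start are shown 5′ to 3′ on the strand of the gene. Capitals mark CACCC or its complement GGGTG, the core of the sites that KLF factors bind.
Plod1 (chr4:147936777-147937026, minus strand): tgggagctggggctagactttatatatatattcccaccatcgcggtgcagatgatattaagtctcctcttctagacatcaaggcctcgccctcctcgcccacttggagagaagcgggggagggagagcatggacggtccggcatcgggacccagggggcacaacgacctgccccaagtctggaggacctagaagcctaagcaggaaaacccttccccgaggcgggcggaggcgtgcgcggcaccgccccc
Plod3 (chr5:136986769-136987018, plus strand): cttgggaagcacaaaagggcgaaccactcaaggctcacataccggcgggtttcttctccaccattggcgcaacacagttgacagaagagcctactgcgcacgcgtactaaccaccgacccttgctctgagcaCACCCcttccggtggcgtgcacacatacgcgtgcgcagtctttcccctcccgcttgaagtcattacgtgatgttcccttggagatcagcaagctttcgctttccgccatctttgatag
P4ha2 (chr11:54100674-54100923, plus strand): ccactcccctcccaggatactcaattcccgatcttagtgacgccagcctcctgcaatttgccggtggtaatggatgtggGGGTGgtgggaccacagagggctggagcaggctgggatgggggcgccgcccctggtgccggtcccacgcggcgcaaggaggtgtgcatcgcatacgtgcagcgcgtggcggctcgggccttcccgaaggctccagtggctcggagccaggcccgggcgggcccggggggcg
For Plod3 and P4ha2 the bases after this start were found in an annotated transcript of the gene, but for Plod1 they were not, so its start, and with it the matches in its window, is less certain. Plod3 and P4ha2 each hold 1 match to CACCC on either strand and Plod1 holds 0. The windows of Serpinh1 and Loxl4, which are not printed, hold 1 and 2, and 52.0% of 32851 promoters of the same length hold at least 1. The GC box letters GGGCGG occur 2 times each in Plod1 and P4ha2, 0 times in Plod3, 1 time in Serpinh1 and 3 times in Loxl4. A match to these letters was found in 32.7% of promoters. The CCAAT letters occur 1 time in Plod3, against 33.8% of promoters. The 3 windows have a GC content of 61.6% for Plod1, 55.6% for Plod3 and 70.0% for P4ha2.

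The same comparison in mutant embryos asks whether the tissue difference is present where Klf2 is reduced. The estimate was higher in mutant cushion than in mutant ventricle for 9 of the 10 genes, all but Loxl3, with a median log2 fold change of 0.44 against 0.01 over all tested symbols. Plod2 alone passed in the fit without the block, beside a background of 9.42% in either direction and 6.16% higher in cushion. With the block 4 genes passed, Lox, Loxl2, Plod1 and Plod2, beside a background of 23.9% in either direction and 13.4% higher in cushion. The wild type and mutant comparisons use different libraries, but a call in one and not in the other does not show that they differ; that difference is tested below as an interaction.

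Plod2 was at 347 and 242 CPM in mutant cushion and at 157 and 130 CPM in mutant ventricle. It rose by 1.03 ± 0.23 on the log2 scale (adjusted p 0.0271). Lox was at 113 and 46.7 CPM in mutant cushion and at 25.8 and 16.2 CPM in mutant ventricle. Its 2 cushion libraries differed by more than those of any other group, and its log2 difference from ventricle was 1.92 ± 0.49 (adjusted p 0.0669, and 1.59e-05 with the block). Loxl2 was at 773 and 487 CPM in mutant cushion and at 389 and 294 CPM in mutant ventricle, a log2 difference of 0.88 ± 0.31 (adjusted p 0.120, and 1.28e-04 with the block).

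Plod1 was at 71.7 and 50.7 CPM in mutant cushion and at 45.3 and 45.7 CPM in mutant ventricle, a log2 difference of 0.43 ± 0.21 (adjusted p 0.257, and 0.0360 with the block). Plod3 was at 73.5 and 55.1 CPM in mutant cushion and at 56.8 and 55.3 CPM in mutant ventricle, so here the tissues overlapped (log2 difference 0.20 ± 0.18, adjusted p 0.552). P4ha2 was at 71.6 and 48.6 CPM in mutant cushion and at 41.2 and 46.9 CPM in mutant ventricle, a log2 difference of 0.45 ± 0.19 (adjusted p 0.180). For these 3 genes replicate 2 of mutant cushion was the mutant cushion library closer to ventricle. On the first principal component that library was shifted towards ventricle, at -22.8. It still lay nearer to the remaining cushion libraries (-54.9 to -46.3) than to the ventricle libraries (35.0 to 50.3). The differences of the remaining genes were 0.32 ± 0.18 for Loxl1, -0.29 ± 0.15 for Loxl3, 0.64 ± 0.48 for Loxl4 and 0.18 ± 0.16 for Serpinh1.

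Without mutant cushion replicate 2, 3 genes passed in the mutant (Lox, Plod2 and P4ha2), whereas 0 passed without mutant cushion replicate 1, either ventricle library of the mutant or either ventricle library of the wild type. Plod2 also missed the threshold when only the 2 mutant groups were fitted (adjusted p 0.0545). With the block and the GC and length correction 5 genes passed, of which Lox, Loxl2, Plod1 and Plod2 were higher (background 12.4%) and Loxl3 was lower (-0.35, adjusted p 0.0233; background 19.3% lower). Htra2, whose exons overlap those of Loxl3, was also lower in mutant cushion than in mutant ventricle (-0.80, adjusted p 0.0226 without the block).

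Mutant against wild type cushion addresses the effect of the genotype on the tissue named in the title of the series. None of the 10 genes passed, and neither did any other tested symbol (background 0.0%; smallest adjusted p 0.0903), while 1699 symbols but 0 of the 10 genes had an unadjusted p below 0.05. With DESeq2 25 symbols passed, and with the block 129 symbols passed (background 0.863%), again 0 of the 10 genes in either. Klf2, the targeted gene, did not pass without the block (log2 difference -3.54, adjusted p 0.145), but passed with it (-3.58, adjusted p 2.86e-05). A missing call in the fit without the block therefore does not show that a difference is absent. The 10 estimates lay between -0.39 and 0.43 on the log2 scale, 3 of them higher and 7 lower in the mutant, with a median of -0.09 against -0.01 over all tested symbols. This balance turned with the block and a correction for transcript GC content and length, where 8 were higher and 2 lower, with a median of 0.09, and again 0 passed.

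The lysyl hydroxylases spanned that whole range. Plod2 was at 259 and 177 CPM in wild type cushion and at 347 and 242 CPM in mutant cushion, which overlapped, with a log2 difference of 0.43 ± 0.23 (adjusted p 0.476). Plod3 was at 89.7 and 78.6 CPM in wild type cushion and at 73.5 and 55.1 CPM in mutant cushion, which did not overlap, with a log2 difference of -0.39 ± 0.18 (adjusted p 0.444). Such a separation in the lower direction was found in 23.9% of all tested symbols. Plod1 was at 89.1 and 65.1 CPM in wild type and at 71.7 and 50.7 CPM in mutant cushion, a log2 difference of -0.33 ± 0.21 (adjusted p 0.529). With the block the adjusted p values were 0.0933 for Plod2, 0.0876 for Plod3 and 0.140 for Plod1, still above the threshold.

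The Lox estimate in cushion, 0.39 ± 0.48 on the log2 scale (adjusted p 0.747), rested on mutant cushion replicate 1 and became -0.38 without that library. With the block, leaving out mutant cushion replicate 2 made Lox pass (log2 difference 0.63, adjusted p 0.0309; background 1.59%), and leaving out mutant cushion replicate 1 made Plod3 pass (-0.51, adjusted p 0.0450; background 5.84%). Lox and Plod3 were thus each called in a fit with 1 mutant cushion library, whose spread is then assumed to be that of the other groups.

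The genotype estimates were also set beside the GC content of the transcripts. Across 14741 tested symbols with an annotated transcript, Spearman's rho between GC content and the mutant against wild type log2 fold change was -0.609 in cushion and 0.458 in ventricle. These are correlations across genes that share the same libraries, and they have no test. Plod2 and Lox have the lowest GC content of the 10 genes, 43.0% and 43.9%, and the 2 highest estimates in cushion. Plod3, with 57.8%, has the lowest estimate, and Plod1 has 52.7%. Loxl1, with the highest GC content of the 10 genes at 61.0%, does not follow that order, with an estimate of -0.09 ± 0.18. With the block and both properties corrected for, the cushion estimates became 0.23 for Plod2, 0.18 for Lox, -0.21 for Plod1, -0.08 for Plod3 and 0.28 for Loxl1. The part of GC content in the genotype differences was otherwise not tested.

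**Figure D3:**
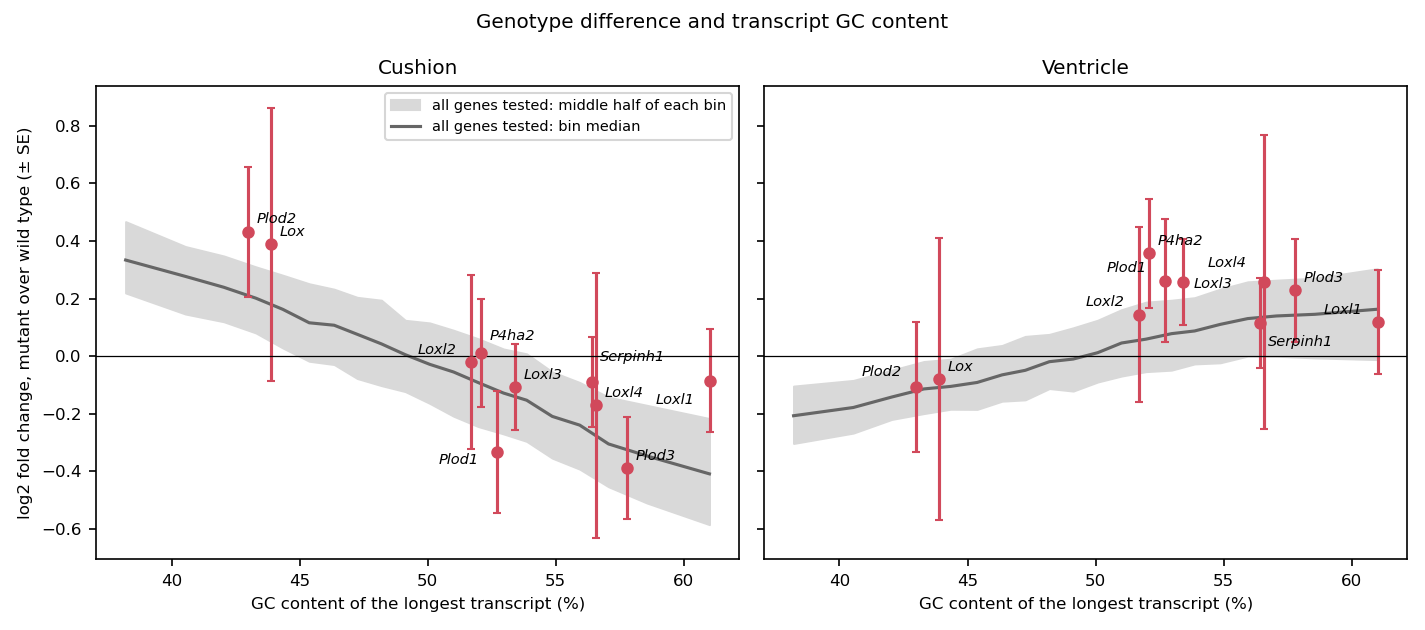
The log2 fold change of mutant over wild type is plotted with its standard error (red) against the GC content of the longest transcript in percent, for cushion on the left and ventricle on the right; the grey line is the median of all tested symbols in bins of GC content and the band their middle 50%. The grey line falls with GC content in cushion and rises in ventricle, and Plod2 at 43.0% and Plod3 at 57.8% lie on the same sides of 0 as the line in both tissues.

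In ventricle the mutant was compared with the wild type in the same way. None of the 10 genes passed, with or without the block; without it no tested symbol passed (background 0.0%; smallest adjusted p 0.269; 342 symbols and 0 of the 10 genes at an unadjusted p below 0.05), and with DESeq2 and with the block 1 symbol passed each (background 0.00669% with the block). Klf2 too did not pass in ventricle without the block (log2 difference -3.93, adjusted p 0.269), but passed with it (-3.94, adjusted p 4.56e-05). The estimates were higher in the mutant for 8 of the 10 genes, with a median of 0.19 on the log2 scale against -0.01 over all tested symbols.

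P4ha2 had the highest estimate in ventricle. It was at 35.5 and 33.3 CPM in wild type and at 41.2 and 46.9 CPM in mutant ventricle, a log2 difference of 0.36 ± 0.19 (adjusted p 0.998). Plod1, at 42.2 and 33.6 CPM in wild type and 45.3 and 45.7 CPM in mutant ventricle, had a log2 difference of 0.26 ± 0.21, and Plod3, at 53.8 and 41.9 CPM against 56.8 and 55.3 CPM, one of 0.23 ± 0.18. In these 3 genes, as in Loxl1 and Loxl3, both mutant libraries were above both wild type libraries, which was so for 13.1% of all tested symbols. Plod2, at 156 and 153 CPM in wild type and 157 and 130 CPM in mutant ventricle, overlapped between the genotypes (log2 difference -0.11 ± 0.23).

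Whether the genotype difference was unlike in the 2 tissues was tested as an interaction, which is also the test of whether the tissue difference was unlike in the 2 genotypes. No tested symbol passed (background 0.0%; smallest adjusted p 0.415), with 1776 symbols at an unadjusted p below 0.05, among them 1 of the 10 genes, Plod3. With the block and with DESeq2 0 symbols passed as well. The genotype difference in cushion minus that in ventricle was -0.62 ± 0.25 on the log2 scale for Plod3 (adjusted p 0.415), -0.59 ± 0.30 for Plod1 (adjusted p 0.439) and 0.54 ± 0.32 for Plod2 (adjusted p 0.491). With the block the adjusted p values were 0.0852 for Plod3, 0.0937 for Plod1 and 0.111 for Plod2. The higher cushion level of Plod1 and Plod3 in wild type was therefore not shown to differ from that in mutant.

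These interaction calls hung on single libraries. With the block, Plod1 and Plod3 both passed without mutant cushion replicate 1 (-0.73 and -0.75; background 8.6%) and without mutant ventricle replicate 1 (-0.84 and -0.79; background 7.83%). With the block and the GC and length correction the differences were -0.42 for Plod1, -0.21 for Plod3 and 0.23 for Plod2.

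A ratio of 2 genes within a library is independent of the scaling of that library. The Plod2 over Plod1 ratio of CPM, chosen after the values were seen, was 2.91 and 2.72 in wild type cushion and 4.84 and 4.77 in mutant cushion. It was 3.70 and 4.56 in wild type ventricle and 3.48 and 2.85 in mutant ventricle. The ratio was thus higher in both mutant cushion libraries than in the other 6, and lower in mutant than in wild type ventricle. The Plod2 over Plod3 ratio had the same pattern, with 2.89 and 2.25 in wild type cushion, 4.71 and 4.39 in mutant cushion, 2.90 and 3.65 in wild type ventricle and 2.77 and 2.35 in mutant ventricle. On the log2 scale the mutant minus wild type difference in the Plod2 over Plod1 ratio was 0.77 in cushion and -0.38 in ventricle, and with GC content and length corrected for it was 0.43 and -0.21. These ratios have no test of their own.

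**Figure D4:**
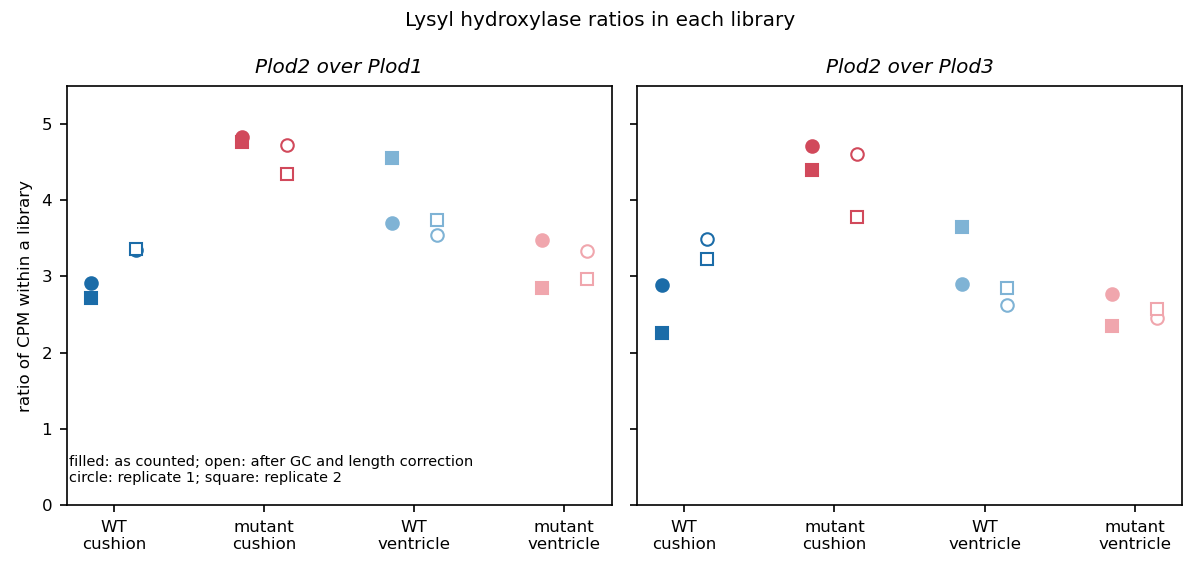
The ratio of Plod2 to Plod1 (left) and of Plod2 to Plod3 (right) in CPM is plotted for each library, filled as counted and open after the correction for GC content and length, with circles for replicate 1 and squares for replicate 2. The mutant cushion libraries are highest as counted, at 4.84 and 4.77 for Plod2 over Plod1, and after correction they are at 4.72 and 4.34, against 3.34 and 3.36 in wild type cushion.

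Other genes of the collagen pathway were described from lists by role. Of 9 tested genes for prolyl hydroxylation, 7 rose in wild type cushion against ventricle and 0 fell, with a median log2 fold change of 0.68, while 1861 of all 14940 tested symbols rose and 23.1% passed in either direction. They include P4ha1 (0.66 ± 0.13, adjusted p 0.00864), the other widely used catalytic subunit, its partner P4hb (0.68 ± 0.15, adjusted p 0.0157), Leprel2, a prolyl 3-hydroxylase (1.62 ± 0.26, adjusted p 0.00485), and the prolyl isomerase Ppib (0.68 ± 0.14, adjusted p 0.0110). With the block and the GC and length correction 6 of the 9 rose and 1 fell in wild type cushion, with a median of 0.38. The 1 that fell was Crtap (-0.43 ± 0.12, adjusted p 0.0133), named after its values were seen. Of all 14940 tested symbols 2437 rose and 3718 fell in that fit. In mutant embryos 2 of the 9 passed without the block, P4ha1 (0.85 ± 0.13, adjusted p 0.00584) and P4hb (0.58 ± 0.15, adjusted p 0.0471), beside 9.42% of all tested symbols. With the block 5 passed, 4 higher and 1 lower, beside 23.9%. The alternative catalytic subunit gene and the partner of P4ha2 thus rose in cushion of both genotypes.

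Of 4 tested genes linked to lysine modification, Fkbp10, a chaperone that helps telopeptide lysine hydroxylation, rose in wild type cushion (1.08 ± 0.15, adjusted p 0.00243) and Tmem38b, a channel of the endoplasmic reticulum, fell (-0.96 ± 0.23, adjusted p 0.0199). Of 10 genes for folding and export, 0 passed in wild type without the block, with a median of 0.04. With the block 1 rose, Mia3, an export receptor named after its values were seen (0.29 ± 0.11, adjusted p 0.0498). Serpinh1 had an estimate of 0.39 and did not pass without the block either (adjusted p 0.105). With the block and the GC and length correction Serpinh1 was at 0.01, while 3 of the 10 genes rose and 1 fell. In mutant embryos 0 of these 14 genes passed without the block. With it 3 passed: Fkbp10 rose (0.49 ± 0.12, adjusted p 0.00983), Tmem38b fell (-0.66 ± 0.17, adjusted p 0.0117) and Fkbp14, a prolyl isomerase named after its values were seen, rose (0.45 ± 0.13, adjusted p 0.0223). Over all tested symbols, 23.1% passed in wild type and 9.42% in mutant without the block. With the block the shares were 41.4% in wild type and 23.9% in mutant, so these counts do not set the 14 genes apart.

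Of 7 tested genes that process procollagen outside the cell, 4 rose in wild type cushion: Bmp1, the C-propeptide proteinase (1.69 ± 0.25, adjusted p 0.00401), its enhancers Pcolce (0.74 ± 0.16, adjusted p 0.0130) and Pcolce2 (2.14 ± 0.48, adjusted p 0.0160), and the N-propeptidase Adamts2 (2.83 ± 0.65, adjusted p 0.0255). With the block a further gene passed in the opposite direction, Adamts3, another N-propeptidase, named after its values were seen, which fell (-0.56 ± 0.15, adjusted p 0.00896). In mutant embryos Pcolce2 passed (2.13 ± 0.52, adjusted p 0.0388), and 3 of the 7 passed with the block. Among 14 tested substrates, collagens and elastin, 4 rose in wild type cushion, Col6a1 (1.78 ± 0.16, adjusted p 5.57e-04), Col6a2 (1.54 ± 0.20, adjusted p 0.00191), Col5a2 (1.06 ± 0.30, adjusted p 0.0385) and Col11a1 (1.48 ± 0.39, adjusted p 0.0385), and 10 rose with the block. Over all tested symbols 23.1% passed in either direction without the block, and 21.2% rose with it. In mutant embryos 2 of the 14 rose, Col6a1 (1.25 ± 0.16, adjusted p 0.00353) and Col6a2 (0.76 ± 0.19, adjusted p 0.0441). With the block 11 passed there, 9 higher and 2 lower. The 2 lower were the collagen IV genes Col4a1 (-0.64 ± 0.17, adjusted p 0.0177) and Col4a2 (-0.69 ± 0.20, adjusted p 0.0300), named after their values were seen. With the block and the GC and length correction 10 of the 14 rose in wild type cushion. Col4a1 (-0.64 ± 0.12, adjusted p 0.00203) and Col4a2 (-0.69 ± 0.15, adjusted p 0.00755) fell there, beside 3718 of all 14940 tested symbols. The shares of all tested symbols that passed in the mutant were 9.42% without the block and 23.9% with it.

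Between genotypes no gene of these lists passed in cushion or ventricle without the block. With the block 4 fell in mutant cushion: Bmp1 (-0.62 ± 0.11, adjusted p 0.0252), and Col1a1 (-0.79 ± 0.14, adjusted p 0.0261), Col2a1 (-0.76 ± 0.13, adjusted p 0.0176) and Col6a3 (-0.66 ± 0.11, adjusted p 0.0146), which were named after their values were seen. With the block and the GC and length correction 0 of the 4 passed. Over all tested symbols 0.863% passed in this comparison with the block. Several cell type marker lists also differed in level between the cushion libraries. The 8 endothelium and endocardium markers were split, with 4 higher and 4 lower in mutant cushion (median 0.03). Their summed level was 1342 to 1409 CPM in wild type and 1335 to 1661 CPM in mutant cushion. The estimate in mutant cushion was lower for 9 of 9 cushion mesenchyme markers, with a median of -0.41 on the log2 scale, and their summed level was 7524 to 15642 CPM in wild type and 7346 to 11554 CPM in mutant cushion. It was higher for 7 of 7 tested leukocyte markers (median 0.59, summed 76.4 to 108 CPM in wild type and 109 to 157 CPM in mutant cushion) and for 8 of 8 erythroid markers (median 0.58, summed 823 to 1888 CPM and 964 to 3733 CPM), and for 6 of 7 epicardium markers (median 0.54, summed 193 to 237 CPM and 265 to 334 CPM). For 9 of 10 cardiomyocyte markers the estimate was lower (median -0.12, summed 25322 to 43972 CPM in wild type and 27672 to 31404 CPM in mutant cushion). None of these markers passed without the block. With it 1 cushion mesenchyme marker fell and 1 epicardium marker rose, beside the 0.863% of all tested symbols. With the GC and length correction as well, 0 cushion mesenchyme markers and 1 epicardium marker passed. None of the markers was at 0 in any library, and their part in the genotype differences was not tested.

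**Figure D5:**
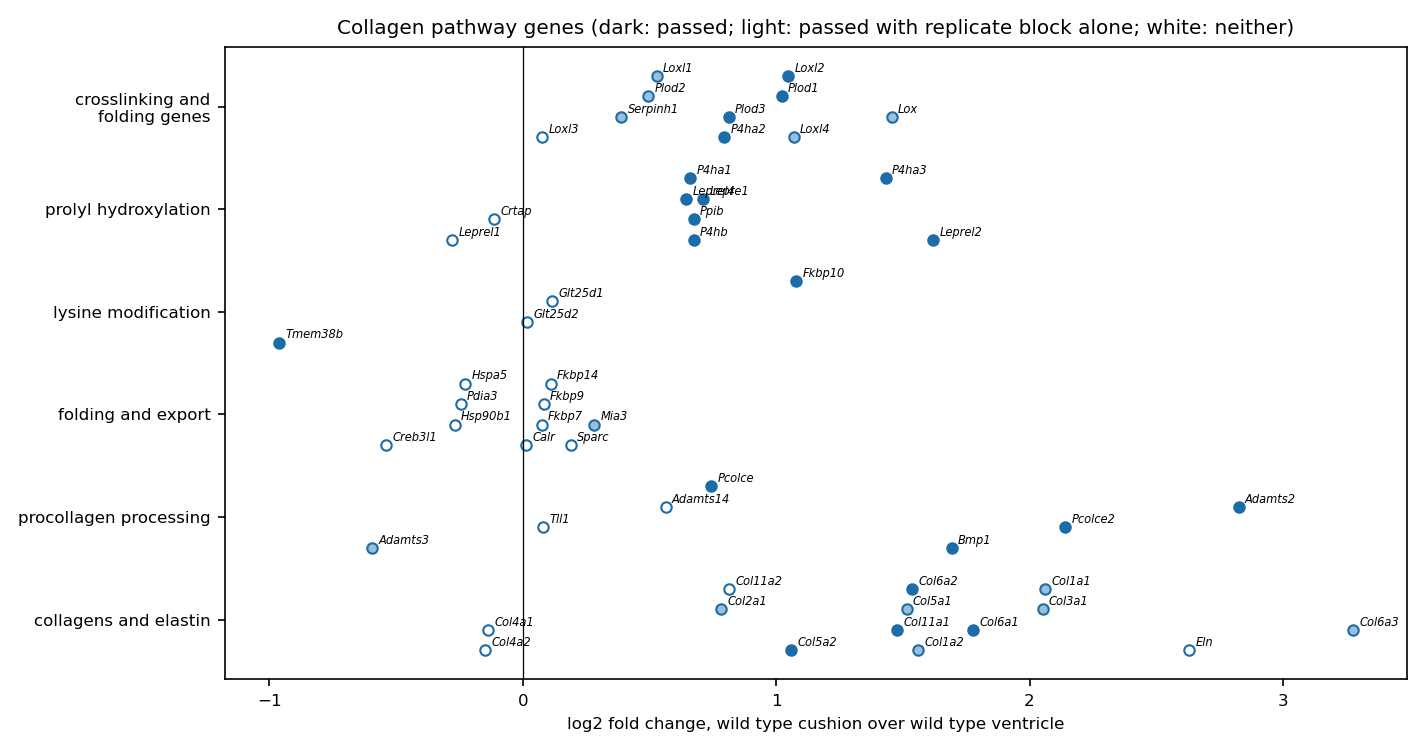
Each point is 1 gene, placed by its log2 fold change of wild type cushion over wild type ventricle, in rows for the crosslinking and folding genes and for 5 other lists; dark points passed, light points passed with the block alone and white points in neither fit. The row for folding and export has no dark point, while prolyl hydroxylation has 7, procollagen processing 4 and the collagens 4, with medians of 0.04, 0.68, 0.74 and 1.53.

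For the genes whose group means spanned more than 1 on the log2 scale, the closest profiles among 12377 symbols were found by the root mean square distance between centred log2 CPM over the 8 libraries. Those of Lox were Fibin (distance 0.12) and Egfr (0.17), and those of Loxl2 were Col5a2 (0.07), a fibrillar collagen gene, and Iqgap1 (0.10). Col5a2 stood at 940 and 681 CPM in wild type cushion and at 463 and 315 CPM in wild type ventricle, with the same order of the libraries as Loxl2 there. Loxl4 was closest to Wbscr17 (0.12) and Lama3 (0.13), Plod1 to Cbx2 (0.10) and Fam129b (0.11), and Plod2 to Pak3 (0.10) and Zfp354c (0.12). Pak3 was at 38.6 and 27.0 CPM in wild type cushion, 49.4 and 31.6 CPM in mutant cushion, 22.3 and 19.9 CPM in wild type ventricle and 20.1 and 16.2 CPM in mutant ventricle, highest in mutant cushion replicate 1 as was Plod2.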

How the data were processed

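Total RNA of 8 libraries was sequenced after ribosomal RNA removal with a stranded kit, per the labels' protocols. The submitters' processing notes name Bowtie 0.12.7 and build mm9; what program counted the reads, with which annotation and strand setting, is not given in the sources used here. Values deposited by the authors are raw counts, 26562828 to 37694738 per library over 28644 rows. The 8 deposited tables are identical. Of the 22869 symbols 3705 stand on more than 1 row, of which the row with the most reads was used.

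The test was edgeR 4.0.16 (R 4.3.3): TMM normalization, filtering by expression within groups, a robust quasi-likelihood fit of all 8 libraries in 4 groups, two-sided tests, Benjamini-Hochberg adjustment over 14940 symbols, threshold 0.05. Standard errors are the log2 fold change over the root of F. CPM use TMM-scaled totals. GC content and length come from the longest GENCODE transcript of a symbol (98.1% of symbols matched), used for no coordinates. Libraries of a group differed by more than sampling noise (chi-square per degree of freedom 45.5 to 118). Loxl4 rests on 11 to 53 reads a library and the other 9 genes on at least 362.

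The labels give replicates 1 and 2 in every group without saying what a number marks. In each of the 6 pairs of groups, deviations from the group means correlated (Pearson r across genes 0.341 to 0.522), so the numbers were taken to pair the libraries, from the data and not from the design. Alternatives were DESeq2 1.42.0 (size factors, and its test), no filter, the replicate block, a GC and length offset with and without the block, summed rows, only the compared groups, and each library left out; leaving out libraries with the block was added after seeing the data. The fits without and with the block and the DESeq2 test were also run on simulated counts that held no replicate effect and no GC trend. That simulation therefore cannot show how the block or the GC and length correction perform on these libraries. The 10 genes and the lists were chosen with earlier results of these data known. Named beside the 10 genes were, of each other list, up to 4 genes that passed in any comparison with the smallest p, and the 2 closest profiles of genes spanning more than 1 on the log2 scale.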

Additional observations from a re-analysis of the deposited data

How the results depend on the processing

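The number of the 10 genes that passed was 0 in both genotype comparisons and in the interaction under every alternative that kept all libraries. A fit of only the compared groups was not run for the interaction, which needs all 4. With 1 library left out the number ranged from 0 to 0 in these 3 comparisons without the replicate block, and with the block it reached 1 in cushion (without mutant cushion replicate 1 or 2), 0 in ventricle and 2 in the interaction (without mutant cushion replicate 1 or mutant ventricle replicate 1). For wild type cushion against ventricle 4 genes passed, 9 with the replicate block, 6 with the block and the GC and length correction, 6 when only the 2 groups compared were fitted, 5 with DESeq2 and 3 without the filter; with 1 library left out the number was 0 to 6, and 6, 7, 8 or 9 with the block. For mutant cushion against ventricle 1 passed, 4 with the replicate block, 5 with the block and the GC and length correction, 2 with that correction alone, 3 with DESeq2 and 0 when only the 2 groups compared were fitted; with 1 library left out it was 0 to 3, and 3, 4, 5 or 6 with the block.

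Single estimates that changed sign had passed neither without the block nor under the alternative that changed the sign. With the GC and length correction and the block, and with that correction alone, wild type cushion against ventricle became -0.041 and -0.042 for Loxl1 and -0.22 and -0.23 for Loxl3. Mutant against wild type cushion became 0.28 and 0.29 for Loxl1, 0.094 and 0.097 for Loxl2, 0.058 and 0.060 for Loxl3, 0.076 and 0.096 for Loxl4, and 0.147 and 0.150 for Serpinh1. Mutant against wild type ventricle became 0.00096 and 0.018 for Lox, 0.0022 and 0.0037 for Plod2, and -0.016 and -0.017 for Serpinh1, and the interaction 0.277 and 0.279 for Loxl1 and 0.164 and 0.167 for Serpinh1. P4ha2 in cushion, at 0.011, was -0.0032 with DESeq2 and with its size factors, -0.014 with summed rows and -0.011 with only the compared groups.

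With 1 library left out, mutant against wild type cushion ranged from -0.38 to 0.89 for Lox, -0.36 to 0.14 for Loxl1, -0.39 to 0.28 for Loxl2, -0.66 to 0.21 for Loxl4, -0.27 to 0.070 for Serpinh1 and -0.29 to 0.27 for P4ha2. In ventricle it ranged from -0.45 to 0.22 for Lox, -0.099 to 0.47 for Loxl2, -0.25 to 1.08 for Loxl4 and -0.24 to 0.025 for Plod2, and the interaction from -0.30 to 0.97 for Lox, -0.47 to 0.025 for Loxl1, -0.53 to 0.13 for Loxl2 and -1.25 to 0.082 for Loxl4. Cushion against ventricle ranged from -0.037 to 0.19 for Loxl3 in wild type and -0.027 to 0.39 for Plod3 in mutant.

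With the block as well, leaving out mutant cushion replicate 1 gave -0.041 for Lox and -0.28 for P4ha2 in cushion and -0.010 for Serpinh1 in the mutant tissue comparison. Leaving out mutant cushion replicate 2 gave 0.19 for Loxl1, 0.050 for Loxl2 and 0.086 for Serpinh1 in cushion and 0.067 for Loxl1 in the interaction. Without wild type cushion replicate 2, Loxl1 was 0.089 and P4ha2 -0.017 in cushion. Without mutant ventricle replicate 1, P4ha2 was -0.0079 in cushion and Serpinh1 -0.0033 in the mutant tissue comparison, and without mutant ventricle replicate 2, P4ha2 was -0.0056 in cushion and Serpinh1 -0.033 in ventricle. Without wild type ventricle replicate 1, P4ha2 was -0.0025 in cushion. Without wild type ventricle replicate 2, it was -0.00010, and in ventricle Lox was 0.16 and Plod2 0.10. The causes were not tested.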
